A study of Mus musculus with 2 samples.

Results

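The mitochondrial ribosomal proteins build the ribosome that works inside mitochondria. The genes were taken by name: every gene of the array whose symbol is Mrpl (large subunit) or Mrps (small subunit) followed by a number, measured by probe sets annotated to that gene alone. This gave 74 genes, 47 of the large and 27 of the small subunit, of 12393 genes on the array. The rule uses names only, but the family was picked with earlier results of these data known. The study set a clone of E14tg2a mouse embryonic stem cells stably transfected with a plasmid for a short hairpin RNA against Dab2 (shDAB2-285, clone 4) beside a clone of the same line stably transfected with the control plasmid (clone 9). Dab2 encodes an endocytic adaptor protein, and the question was which transcripts differ when it is targeted. Both clones were grown in the same medium with serum and leukaemia inhibitory factor (LIF), the cytokine that keeps these cells undifferentiated. RNA from either clone was measured on a single Affymetrix mouse 430A array. With 1 array per clone there is no replicate, so no test between the clones exists and no p-value or error is given. Effects of the hairpin, of the clone and of its culture cannot be told apart.

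Mitochondria keep a small genome of their own. Its messenger RNAs encode core subunits of the respiratory chain and are translated by this dedicated ribosome, whose RNAs come from the mitochondrial genome and whose proteins are all encoded in the nucleus, made in the cytosol and imported. The small subunit holds the messenger RNA and its decoding centre, and the large subunit forms peptide bonds and passes the new chain through a tunnel to the inner membrane. Some of the proteins have counterparts in bacterial ribosomes, and others were gained by mitochondria.

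Each value is a deposited log2 expression value from RMA, a method that subtracts background, equalises the distributions of the arrays and combines the probes of a probe set. Where several probe sets measure a gene, the brightest on average was used. The difference is the shDAB2 clone minus the vector clone, so a positive value means more signal in the shDAB2 clone. The floor was 6.62, the table's median, and a gene passed it if at least 1 clone did. All 74 genes passed, beside 7269 of the 12393 genes in all. Mrpl33, counted below among the higher genes, passed only in the shDAB2 clone (6.70, against 6.52 in the vector clone). The other genes of the family passed in both. Signal depends on the probes as well as on the transcript, so the signal of different genes is no measure of their relative abundance, and is given below only to show how bright the groups of genes were.

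The array distributions nearly coincided, with medians of 6.62 and 6.62 and a correlation of 0.99 over 22626 probe sets. The targeted gene, Dab2, was near the floor in both by the brightest of its 3 probe sets: 6.33 with the hairpin and 6.64 without, a difference of -0.31. The other Dab2 probe sets are not given here. Markers bore out the label of embryonic stem cells on both arrays: 9 of 9 stem cell markers lay above the floor, with a mean level of 9.43 in the shDAB2 and 9.39 in the vector clone. Above the floor were also 0 of 6 markers of primitive endoderm, 1 of 5 of trophectoderm, 1 of 7 of fibroblasts, 0 of 3 of mesoderm and 2 of 4 of neuroectoderm. Their mean levels ran from 6.33 to 6.78 in the shDAB2 and from 6.31 to 6.64 in the vector clone. Those that differed most were Neurod1 (neuroectoderm, 7.15 in the shDAB2 and 6.65 in the vector clone) and Tfap2c (trophectoderm, 7.06 and 7.53), chosen here after their values were seen. The part of other cell types in the differences below was not tested. In RNA from a whole culture, fewer cells of a type and less RNA per cell cannot be told apart.

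The promoters of the genes that differed most are shown first. At least 1.3-fold higher in the shDAB2 clone were 5 of the 74 genes (6.76%), against 3.07% of all genes above the floor. None was as much lower, against 4.35%. In the brightest of 3 equal groups of genes by signal, the shares higher were 9.26% of the family and 6.24% of all genes. The 5 genes are Mrpl34, Mrpl18, Mrps12, Mrpl20 and Mrpl50. Mrpl23 is printed as a contrast, as the second lowest of the 74 (the lowest, Mrpl38, had no entry). Sequences are from RefSeq for GRCm38.p6, where 65 of the 74 genes were matched, and run 5′ to 3′ on the strand of the gene up to the base before its annotated start. They cover 250 bases, or fewer where a neighbouring gene on the other strand starts within that stretch. The positions are chr8:71464676-71464925 (plus strand), chr17:12916092-12916328 (minus), chr7:28741822-28741967 (minus), chr4:155802628-155802877 (plus), chr4:49521084-49521175 (minus) and chr7:142532782-142533031 (plus). Capitals mark matches to any of 5 motifs, on either strand: that of nuclear respiratory factor 1, CCGGAAG (the ETS family, to which GABPA belongs), AAGATGG (YY1), CACGTG (E-box), and ACTACA followed after a gap by CCC, called the ACTACA element here.
Mrpl34: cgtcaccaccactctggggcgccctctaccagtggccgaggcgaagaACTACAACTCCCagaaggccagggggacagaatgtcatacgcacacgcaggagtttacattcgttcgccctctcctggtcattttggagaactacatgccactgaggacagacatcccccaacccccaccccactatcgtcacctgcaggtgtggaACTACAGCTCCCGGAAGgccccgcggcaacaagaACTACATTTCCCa
Mrpl18: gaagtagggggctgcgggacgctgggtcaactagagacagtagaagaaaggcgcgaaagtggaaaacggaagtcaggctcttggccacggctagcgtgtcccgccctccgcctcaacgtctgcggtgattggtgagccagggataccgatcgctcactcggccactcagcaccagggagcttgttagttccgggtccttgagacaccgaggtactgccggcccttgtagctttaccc
Mrps12: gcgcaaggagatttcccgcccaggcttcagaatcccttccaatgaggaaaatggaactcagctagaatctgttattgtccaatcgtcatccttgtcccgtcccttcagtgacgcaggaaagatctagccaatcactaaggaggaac
Mrpl20: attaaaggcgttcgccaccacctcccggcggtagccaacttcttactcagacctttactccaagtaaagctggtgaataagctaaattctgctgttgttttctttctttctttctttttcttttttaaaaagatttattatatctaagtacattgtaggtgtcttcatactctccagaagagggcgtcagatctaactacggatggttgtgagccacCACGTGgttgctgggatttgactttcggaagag
Mrpl50: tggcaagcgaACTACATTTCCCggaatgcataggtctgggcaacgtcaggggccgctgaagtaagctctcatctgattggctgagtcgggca
Mrpl23: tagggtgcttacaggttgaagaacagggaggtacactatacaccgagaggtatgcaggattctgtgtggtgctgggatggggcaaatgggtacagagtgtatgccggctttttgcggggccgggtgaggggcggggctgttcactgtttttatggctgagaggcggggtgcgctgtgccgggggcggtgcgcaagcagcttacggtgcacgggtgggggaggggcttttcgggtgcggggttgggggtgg
The Mrpl34 stretch held the ACTACA element 3 times, beginning 203, 47 and 13 bases before the start, and CCGGAAG beginning 37 bases before it, overlapping the middle copy, the 1 overlap between different motifs in the family's promoters. In Mrpl50 the same element began 82 bases before the start, and a further copy lay 143 bases before it, beyond the start of the neighbour. The E-box of Mrpl20 began 33 bases before its start. The printed stretches of Mrpl18 and Mrps12 held no whole match. An ETS match of Mrpl18 began 240 bases before its start and crossed the start of the neighbour. The last letters of that match open the printed stretch, in small letters. Beyond the neighbour's start Mrps12 had a YY1 match 198 bases before its own. The full window of Mrps12 also held an ETS match. Mrpl23 had no match in the printed stretch or in its full window.

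The first 4 motifs stand for factors known to act on many nuclear genes for mitochondria. They were searched in the full window of 250 bases before to 50 after each start. The ETS motif was found in 33.8% of the 71 promoters of the mitochondrial ribosomal protein genes, in 19.1% of 7647 promoters of genes above the floor and in 8.86% of all 32851 promoters. The YY1 motif was found in 16.9%, 7.79% and 6.34%, the nuclear respiratory factor 1 motif in 16.9%, 11.1% and 4.6%, and the E-box in 9.86%, 10.7% and 7.15%. At least 1 of these 4 motifs stood in 62.0% of the genes' promoters, against 39.8% and 23.3%. Carriers and other genes of the family are given side by side, with no test. Their counts stand beside 75.7% higher in the whole family and 50.0% over all genes above the floor. The share higher was not computed for carriers among all genes. The median difference was 0.10 for the 24 genes with the ETS motif and 0.14 for the 41 without, 0.05 against 0.14 for the 12 with and 53 without the nuclear respiratory factor 1 motif, and 0.16 against 0.10 for the 12 with and 53 without the YY1 motif. Higher in the shDAB2 clone were 17 of 24 genes with the ETS motif and 34 of 41 without, and 9 of 12 with the nuclear respiratory factor 1 motif and 42 of 53 without. With the YY1 motif 11 of 12 were higher, and without it 40 of 53. The 5 genes with an E-box had a median of 0.14 (4 higher) and the 60 without one 0.11 (47 higher). The ACTACA element, known to be bound by ZNF143 (Zfp143 in mouse), was added after these sequences had been read. It stood in the promoters of Mrpl34, Mrpl50, Mrpl42, Mrpl24 and Mrps22, 5 of 71 promoters (7.04%), against 4.83% of those of genes above the floor and 2.09% of all. These carriers went both ways: Mrpl34, Mrpl50 and Mrpl42 were higher (0.76, 0.40 and 0.28) and Mrpl24 and Mrps22 lower (-0.20 and -0.24). All of this describes letters in a window, not binding.

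As a family the genes were slightly higher in the shDAB2 clone. Of the 74, 56 were higher and 18 lower, where 50.0% of all genes passing the floor lay higher and 49.3% lower. The median difference was 0.11, with quartiles of 0.01 and 0.23, beside a median of 0.00063 and quartiles of -0.11 and 0.11 over all 7269 genes. The mean was 0.13. The shift is small for any single gene: probe sets of 1 gene disagree with an SD of 0.11 per probe set, estimated from 2502 genes with a second probe set above the floor. It shows in the number of genes with modest differences. At least 1.1-fold higher were 35 of the 74 genes, against 20.4% of all genes, and at least 1.1-fold lower 5 of the 74, against 21.2%. At the 1.3-fold limit 5 of the 74 were higher (6.76%), where the share over all genes was 3.07%, and 0 of the 74 were lower, where it was 4.35%. At 1.5-fold 1 of the 74 was higher, against 0.578%, and 0 lower, against 1.62%.

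**Figure D1:**
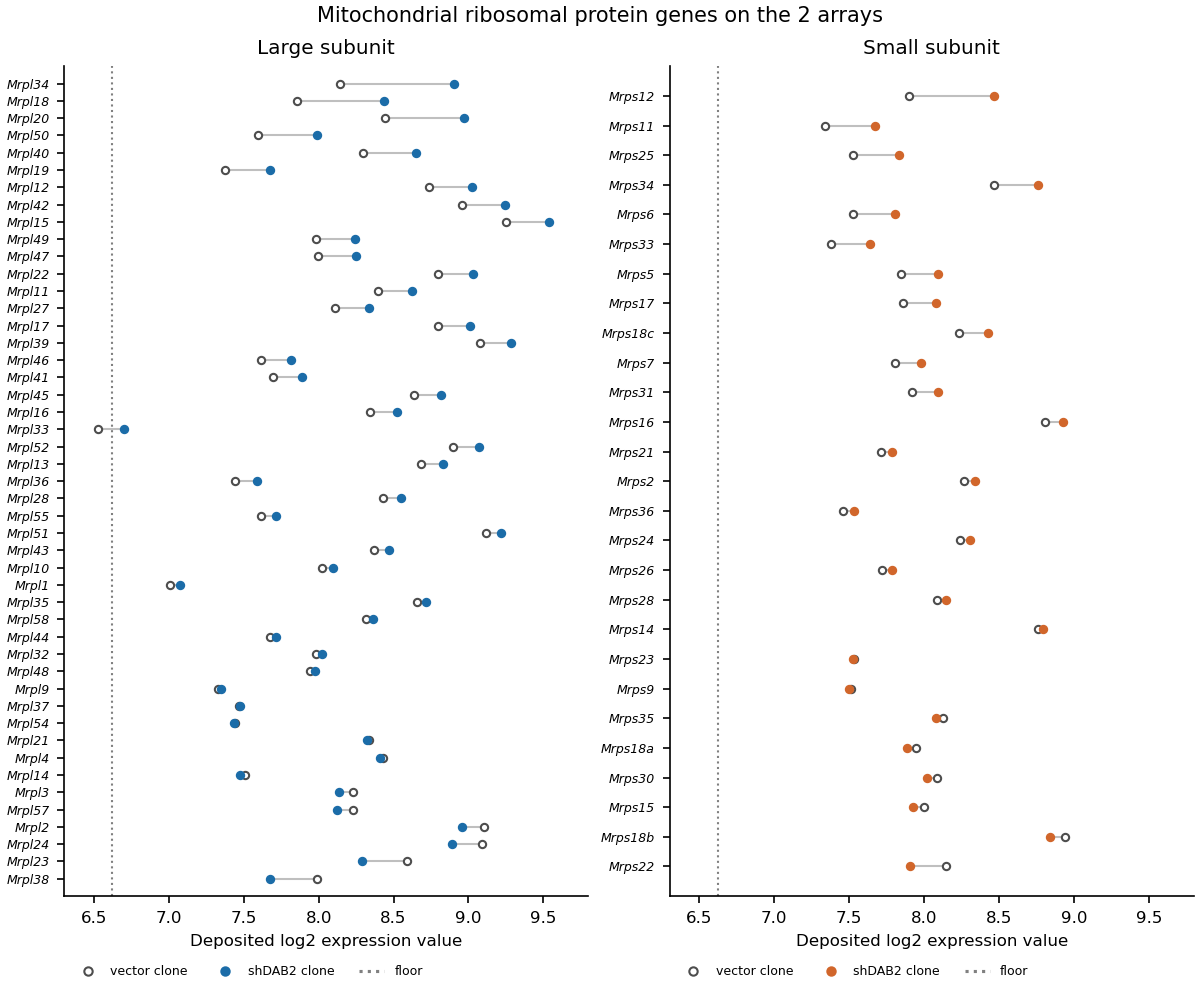
Deposited log2 expression value (horizontal axis) of each of the 74 genes in the vector clone (open circles) and the shDAB2 clone (filled circles), 1 array each, sorted by difference within the large (47 genes) and small (27 genes) subunit. The dotted line is the floor of 6.62, and 37 large and 19 small subunit genes lie higher in the shDAB2 clone.

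Bright genes differ more on these arrays, so the family was also set beside genes of like signal. Its median mean signal was 8.12, against 7.33 over all genes above the floor, and 54 of the 74 genes lay in the brightest of 3 equal groups of genes. Within that group 40 of the 54 genes were higher (74.1%), against 53.6% of all 2420 genes there. Their median was 0.14 against 0.02. At least 1.1-fold higher were 27 of the 54 against 30.0%, and at least 1.1-fold lower 5 of the 54 (9.26%) against 25.7%. The 1.3-fold limit was passed by 5 of the 54 (9.26%) against 6.24%, so genes past that limit were little more frequent in the family than among genes as bright. In the middle group 15 of 19 genes were higher (78.9% against 48.1%), with a median of 0.07 against -0.0068. Across the 74 genes the difference and the mean signal correlated at r = 0.09, given as a description over genes of the same arrays.

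**Figure D2:**
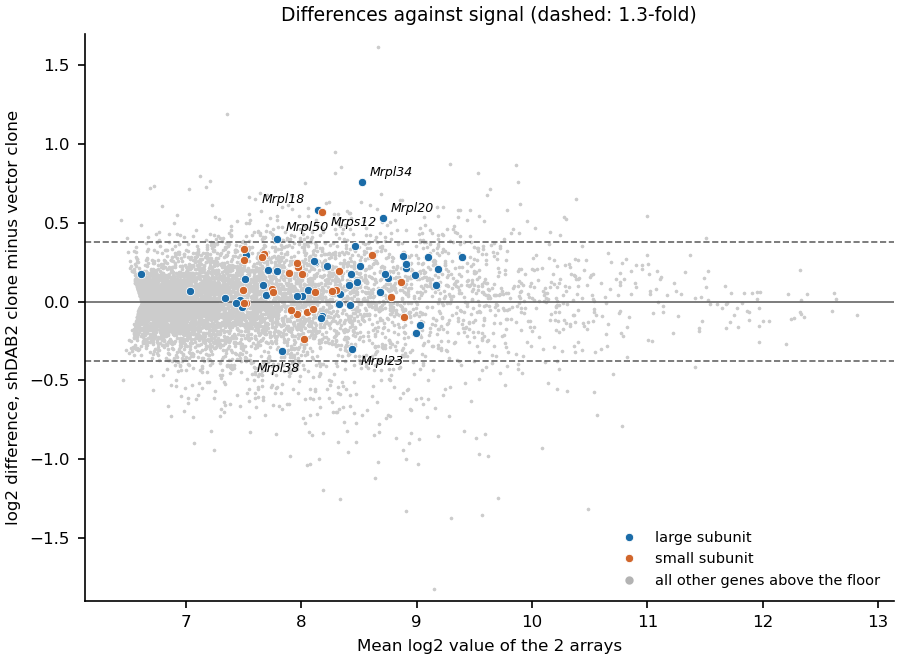
The log2 difference (shDAB2 clone minus vector clone) against the mean log2 value of the arrays for the 74 genes, coloured by subunit, over all other genes above the floor in grey. Dashed lines mark 1.3-fold; 5 genes of the family lie above the upper line and 0 below the lower one.

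Mrpl34 stood highest. It encodes one of the smallest proteins of the large subunit, the counterpart of bacterial L34, which is embedded in ribosomal RNA. Its log2 value was 8.91 with the hairpin and 8.15 without, 1.69-fold higher, the only gene of the family past 1.5-fold. A second Mrpl34 probe set lay below the floor, at 6.47 and 6.44, and differed by 0.03, so the value rests on 1 probe set. Mrpl18, the counterpart of the bacterial L18 protein of the central protuberance, followed with 8.44 in the shDAB2 and 7.86 in the vector clone. Its difference of 0.58 lies just under the 1.5-fold limit.

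Mrps12 was the highest gene of the small subunit. Its protein is the counterpart of bacterial S12, which lines the decoding centre and is the site of streptomycin resistance mutations in bacteria. It read 8.47 in the shDAB2 and 7.90 in the vector clone, 1.48-fold higher. Mrpl20, counterpart of a protein needed early in assembly of the bacterial large subunit, read 8.97 and 8.44, 1.44-fold higher. Mrpl50, a protein that bacteria lack, read 7.99 and 7.59, 1.32-fold higher, and lies nearest to the limit. The second probe set of Mrpl50 differed by only 0.11, while Mrpl18, Mrps12 and Mrpl20 were measured by 1 probe set each. The probe sets of Mrpl20 and Mrps12 are of the types that may match several transcripts (IDs ending in _a_at and _s_at).

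Just under the limit came Mrpl40, another protein of the central protuberance, at 0.35 (8.65 in the shDAB2 and 8.29 in the vector clone). Next were Mrps11 of the small subunit platform at 0.33 and Mrps25 at 0.30. Mrpl19, Mrps34 and Mrpl12 differed by 0.30, 0.29 and 0.29. Mrpl12 forms the mobile stalk that recruits translation factors, and is also known to bind the mitochondrial RNA polymerase. For Mrpl19 a second probe set gave a like difference of 0.32.

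The lowest genes differed less than the highest. Mrpl38, a mitochondrial addition to the central protuberance, read 7.68 in the shDAB2 and 7.99 in the vector clone, 1.24-fold lower. Mrpl23, beside the exit of the peptide tunnel, read 8.29 and 8.59, 1.23-fold lower. Mrps22, a small subunit protein that bacteria lack, read 7.91 and 8.15, 1.18-fold lower. Mrpl24 differed by -0.20, Mrpl2 by -0.15, Mrpl57 by -0.10, Mrps18b by -0.10, Mrpl3 by -0.09 and Mrps15 by -0.08. Mrpl2 and Mrpl3 are the counterparts of the bacterial proteins that reach towards the peptidyl transferase centre. The remaining 9 lower genes lay between -0.065 and -0.0068, less than the SD between probe sets. Mrps30 and Mrps18a (-0.06 each) are among these, and their proteins are known to sit in the large subunit despite their names.

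The large and small subunits differed in the same direction. Of the large subunit genes 37 of 47 were higher, with a median of 0.14 (mean 0.14). Of the small subunit genes 19 of 27 were higher, with a median of 0.07 (mean 0.11). The medians differ by 0.07 and the means by 0.02. At least 1.3-fold higher were 4 of the 47 and 1 of the 27, and at least 1.1-fold higher 24 and 11, beside 3.07% and 20.4% of all genes. The gap between the subunits depended on the way a gene's value was taken: it was 0.0058 where each gene's probe sets were averaged, and 0.02 with Mrps36, now assigned to another complex, left out and Mrps30 and Mrps18a counted with the large subunit. No difference between the subunits is therefore called. Large subunit genes also had the higher signal, with a median of 8.33 against 7.97.

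Proteins with a bacterial counterpart and proteins gained by mitochondria were compared by lists drawn up from the known structures. Mrps30 (-0.06), Mrps18a (-0.06) and Mrps36 (0.07) are on none of these lists. Mrps30 and Mrps18a, whose proteins sit in the large subunit, are therefore missing from its counts. The counts stand beside 75.7% higher in the whole family and 50.0% over all genes above the floor. In the large subunit 22 of 29 genes with a counterpart were higher (median 0.14), and 15 of 18 specific to mitochondria (median 0.14). In the small subunit 13 of 15 genes with a counterpart were higher (median 0.12). Of the 9 small subunit genes specific to mitochondria 5 were higher, with a median of 0.06, the most even of these groups. Its values ran from -0.24 for Mrps22 to 0.30 for Mrps25.

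**Figure D3:**
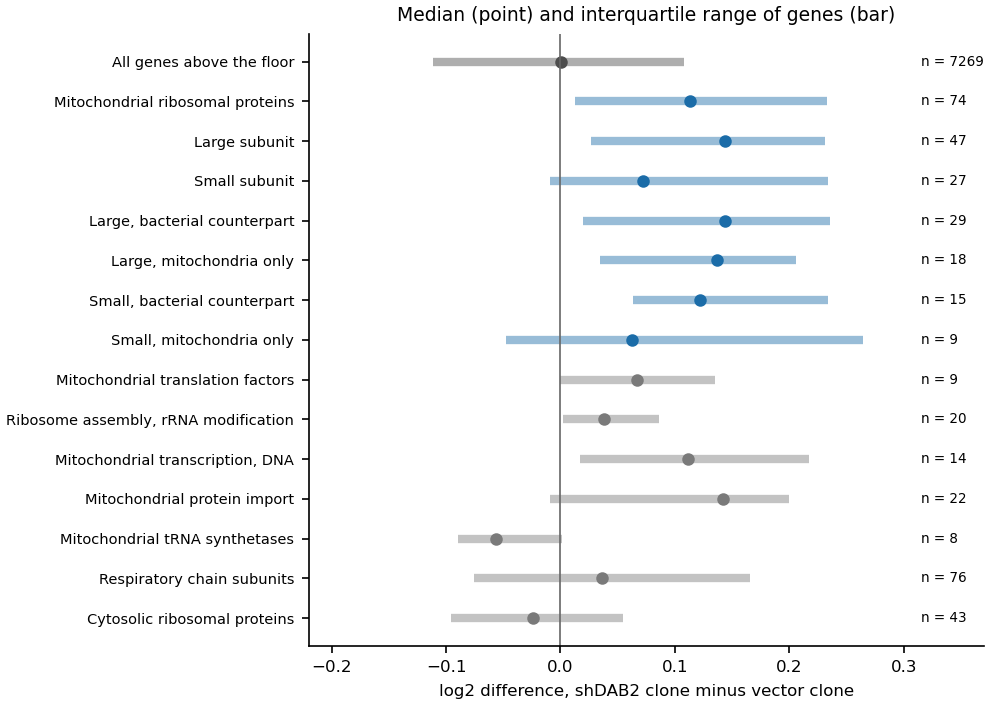
Median log2 difference (points; shDAB2 clone minus vector clone) and interquartile range of the genes (bars) for all genes above the floor, the mitochondrial ribosomal protein genes and their subgroups (blue), and other lists of mitochondrial and ribosomal genes (grey), with the number of genes above the floor. The family's bar runs from 0.01 to 0.23 and that of all genes from -0.11 to 0.11.

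Genes were also grouped by where their proteins lie in the ribosome, a grouping chosen after the values were seen. The groups are small and do not hold every gene of a site. Their counts stand beside 75.7% higher in the whole family and 50.0% over all genes above the floor. The stalk proteins Mrpl10, Mrpl11 and Mrpl12 were 3 of 3 higher, at 0.07, 0.23 and 0.29. At the peptidyl transferase centre the genes divided, with Mrpl16 (0.18) and Mrpl27 (0.23) higher and Mrpl2 and Mrpl3 lower, as given above. Along the exit tunnel 6 of 8 were higher with a median of 0.19, from 0.04 for Mrpl44 to 0.25 for Mrpl47. The 2 exceptions there were Mrpl23 and Mrpl24. Mrpl45, which is known to tie the ribosome to the inner membrane, differed by 0.18. In the central protuberance 5 of 6 were higher, with Mrpl38 the exception and a range from -0.32 to 0.58. Of the small subunit platform 4 genes were listed, and 4 of 4 were higher. Mrps21 stood at 0.08, Mrps18c at 0.19, Mrps6 at 0.28 and Mrps11 at 0.33. Mrps15, the counterpart of another platform protein, was left off that list and was lower (-0.08). In the head Mrps7 stood at 0.18, Mrps24 at 0.07, Mrps14 at 0.03 and Mrps9 at -0.01.

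Where a gene had several probe sets, they mostly shared the direction of the family. A second probe set above the floor existed for 23 of the 74 genes, and its sign matched in 19 of 23. Neither the share with matching signs nor the share of second probe sets that were higher was computed over all genes. The differences of first and second probe sets correlated at r = 0.59 in the 23 genes, against 0.78 over all 2502 genes with such a pair. The SD per probe set was 0.09 in the 23 genes, against 0.11 over the 2502. The second probe sets alone had a median of 0.11, beside 0.10 for the first ones of the same genes, and 16 of 23 were higher. Those of Mrpl21 and Mrpl51, counted as higher, passed the floor only in the shDAB2 clone, and those of the other genes in both. Some genes were uneven. The Mrpl11 probe sets differed by 0.23, 0.40 and -0.09, those of Mrpl52 by 0.17, 0.29 and -0.07, those of Mrpl28 by 0.12, 0.23 and -0.15, and those of Mrpl13 by 0.15, 0.09 and -0.15. In these 4 genes the lone negative value came from a probe set whose ID ends in _x_at, a type whose probes can match other transcripts, though the values of 0.40 for Mrpl11 and 0.23 for Mrpl28 came from that type too. In Mrpl21, Mrpl48 and Mrpl9 the probe sets differed in sign with sizes of at most 0.11. Mrpl15 was even, with 4 probe sets above the floor from 0.10 to 0.30, and Mrpl49 gave 0.26 and 0.42.

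**Figure D4:**
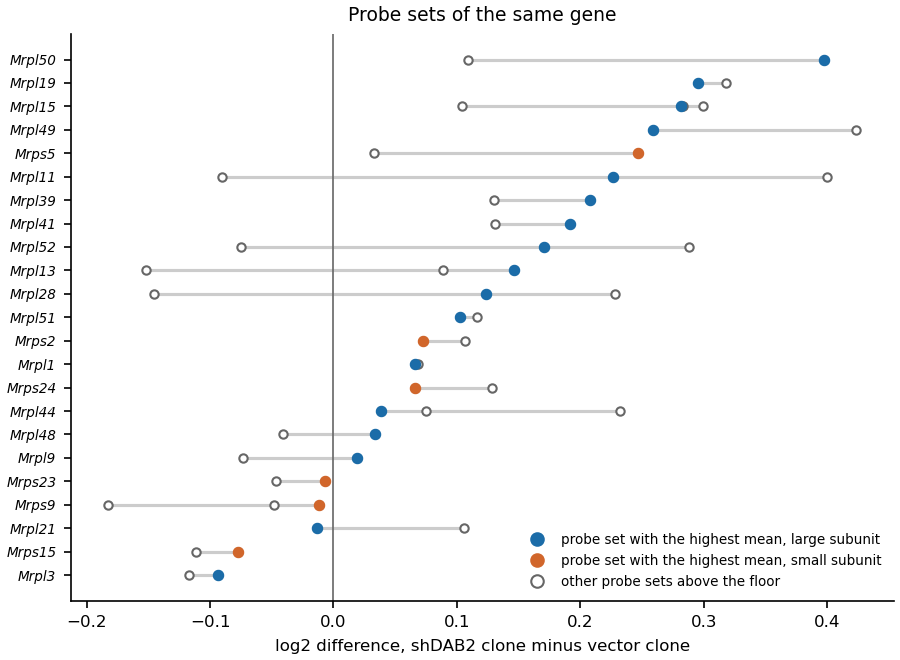
The log2 difference (shDAB2 clone minus vector clone) of each probe set above the floor for the 23 genes with at least 2 of them. Filled points are the probe set with the highest mean, open points the others, and in 7 of the 23 genes they fall on both sides of 0.

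Across the arrays short genes were slightly higher, and the genes of this family are short. Their median genomic span was 7610 bases against 21012 for all genes above the floor. In 10 equal groups of genes by span, the median difference of all genes went from 0.03 in the shortest to -0.04 in the longest. The shortest 3 groups held most of the family, and its medians there lay above those of all genes. They were 0.12 against 0.03 (21 genes), 0.07 against 0.03 (15 genes) and 0.08 against 0.03 (19 genes). With the median of all genes in the same group by span and signal subtracted from each gene, the family's median was 0.09, with 52 of 74 genes higher and 4 at least 1.3-fold higher. Mrpl34 then stood at 0.71, Mrpl18 at 0.53, Mrps12 at 0.52 and Mrpl20 at 0.48, while Mrpl50 fell short of the limit at 0.32. The part of span and signal in the family's values was not tested further. The Mrpl34 gene, at 828 bases, was the shortest of the 74.

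**Figure D5:**
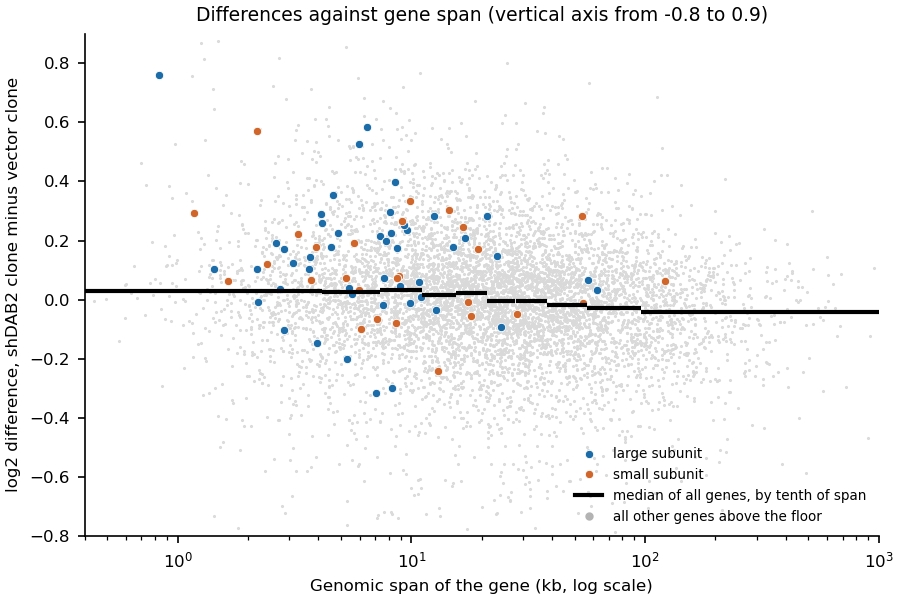
The log2 difference (shDAB2 clone minus vector clone) against genomic span in kilobases (log scale) for the 74 genes, over all other genes above the floor in grey. Black bars are medians of all genes in 10 groups by span, from 0.03 to -0.04, and 61 genes lie outside the axes.

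Several of these genes share a promoter region with a neighbour read in the opposite direction. Of the 65 genes with an annotated start, 22 (33.8%) had a protein-coding gene starting within 1000 bases on the other strand, against 14.6% of 5927 genes above the floor. For 12 such pairs both genes were above the floor. The median difference of the genes of the family in these pairs was 0.21, and that of their neighbours -0.0011, with 6 of 12 neighbours higher. Mrps11, itself of the family, is counted there as the neighbour of Mrpl46, and at 0.33 it is the highest of the neighbours. The signs matched in 9 of 12 pairs, a share that was not computed for such pairs over all genes. The pairs that did not include the genes with the largest differences. Mrpl18 starts 238 bases from Tcp1, a subunit of the cytosolic chaperonin, which differed by -0.06 (10.73 in the shDAB2 and 10.80 in the vector clone) where Mrpl18 differed by 0.58. Mrps12 starts 147 bases from Sars2, the mitochondrial seryl-tRNA synthetase gene, which differed by -0.13 (7.05 and 7.18) where Mrps12 differed by 0.57. Mrpl46 and Mrps11, from different subunits, start 42 bases apart and differed by 0.20 and 0.33. Mrpl40 (0.35) and its neighbour Hira, a histone chaperone gene (0.23), start 113 bases apart. Mrpl27 (0.23) and Eme1, a DNA repair endonuclease gene (0.19), start 48 bases apart. Genes of the family with such a neighbour had a median of 0.19 (22 genes) and the others with an annotated start 0.08 (43 genes).

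The rest of the mitochondrial expression machinery differed by varying amounts, by lists of genes above the floor. A list of mitochondrial ribosomal proteins under other names, which also holds the membrane insertase gene Oxa1l, had 3 of 5 higher with a median of 0.07. Gadd45gip1, a large subunit protein, read 7.94 in the shDAB2 and 7.37 in the vector clone, 1.49-fold higher, while Dap3 of the small subunit and Oxa1l differed by -0.19 and -0.20. Translation factors were 6 of 9 higher (median 0.07), led by the elongation factor Gfm1 at 0.34, with the elongation factor Tufm at 0.14 and Gatc at 0.13. Ribosome assembly and rRNA modification genes were 15 of 20 higher but with a median of only 0.04, and their largest differences were -0.32 for the protease gene Spg7, 0.21 for Fastkd2 and 0.20 for the rRNA methyltransferase gene Mrm3. Mitochondrial transcription and DNA maintenance genes were 11 of 14 higher with a median of 0.11. Slirp, which stabilises mitochondrial messenger RNAs, stood at 0.43, Tefm at 0.25 and the DNA polymerase gene Polg at -0.32. None of these 4 lists held a gene at least 1.3-fold lower, and Gadd45gip1 and Slirp were the 2 at least 1.3-fold higher, beside 4.35% and 3.07% of all genes.

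Mitochondrial protein import genes, a list not limited to the route of the ribosomal proteins, were 16 of 22 higher with a median of 0.14. Timm8a1 read 8.95 in the shDAB2 and 8.36 in the vector clone, a difference of 0.59, Tomm22 differed by 0.39 and Timm22 by 0.34. Mitochondrial aminoacyl-tRNA synthetase genes were 2 of 8 higher, with a median of -0.06, and Iars2 was the lowest at -0.21, followed by Sars2 and by Ears2 at -0.08. Among known regulators of nuclear genes for mitochondria 5 of 9 were higher with a median of 0.15, with Gabpa at 0.28, Myc at 0.25 and Esrrb at -0.24. Respiratory chain subunits encoded in the nucleus, among them partners of the proteins this ribosome makes, were 43 of 76 higher with a median of 0.04. Their largest differences were Atp5g1 at 0.68, Ndufa5 at 0.54 and Uqcr11 at 0.50. Genes with symbols of cytosolic ribosomal proteins were 17 of 43 higher with a median of -0.02. The largest differences on that list were Rpl7l1 at 0.32, Rps26 at -0.26 and Rpl14 at 0.25. The list was taken by symbol alone. It can hold genes such as Rpl7l1, named for likeness to a ribosomal protein, that need not encode a part of the ribosome. Cytosolic ribosomal protein genes had a median signal of 11.73, above the 9.39 of the brightest mitochondrial one, so no group of like signal was at hand for that comparison.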

How the data were processed

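RNA abundance was measured on 1 array for each of the shDAB2 and vector clones, grouped by the sample titles. The deposited log2 values were made by the authors with RMA, per the submitters' processing notes. Those notes name neither the RMA version nor the log base, and log2 was inferred from the range of values. RMA shrinks differences of dim probe sets. GEO's platform annotation gave gene names: 20380 of 22626 probe sets had 1 gene, 691 several and 1555 none here. Gene IDs of 20351 matched RefSeq (GRCm38.p6). Counts and medians were computed with pandas 2.3.3 and tested on simulated data, with no test across samples. The number of arrays limits the precision.

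Named genes are Dab2, genes of the family past 1.3-fold, the 12 highest and 12 lowest, the 5 brightest and 5 dimmest (by signal range only), genes whose probe sets differ in sign or by over 0.3, and 3 from each other list. Others, such as those given by site or as neighbours, were chosen after their values were seen. The family and all lists were chosen with earlier results of these data known. Alternatives tried were centring, cyclic loess by limma 3.58.1 (R 4.3.3), other probe set choices and floors, removal of the span and signal trend, other subunit assignments, other fold limits and the mean.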

Additional observations from a re-analysis of the deposited data

How the results depend on the processing

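With 1 array per clone no setting can estimate the spread between cultures or clones. No paired analysis was possible because each group holds 1 sample. The family's median of 0.11 became 0.088 after cyclic loess, 0.091 with the span and signal trend removed and 0.13 as a mean. Under the other 6 alternatives it lay between 0.10 and 0.12. There it moved less than the probe-set SD divided by the square root of the number of genes. That limit only sorts the settings. It treats genes of the same arrays as independent and is no error of the median. The large subunit median of 0.14 became 0.11 after cyclic loess, 0.10 with the mean of all probe sets, 0.11 with the trend removed and 0.12 with subunits assigned by structure. The small subunit median of 0.07 became 0.097 with the mean of all probe sets, 0.10 with subunits by structure and 0.11 as a mean. The gap between subunits of 0.07 became 0.041 after cyclic loess, 0.0058 with the mean of all probe sets, 0.044 with the trend removed, 0.023 with subunits by structure and 0.023 as a mean. The cause of these moves was not tested.

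The count of 5 genes at least 1.3-fold higher became 3 without probe sets ending in _s_at, _x_at or _a_at, which leaves 55 genes and removes Mrpl20 and Mrps12. By construction it was 1 at 1.5-fold and 35 at 1.1-fold, and the count of 0 lower genes was 5 at 1.1-fold. Mrpl50 was lost with the mean of all probe sets (0.25) and with the trend removed. With that mean Mrpl34 stood at 0.40. All 74 genes lay above the floor, so removing it changed none of these values. Of the values of named genes under the alternatives, 252 shifted by under 0.11 (the SD between probe sets) and 10 by at least that. Many of the 252 could hardly shift. The floor does not alter a gene's value, centring moves all genes alike, and averaging leaves a gene with 1 probe set unchanged. All 10 larger shifts came from the choice of probe sets. With the mean of all probe sets Mrps11 went from 0.33 to 0.15 and Mrps25 from 0.30 to 0.13.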

Other observations

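There were 3 probe sets annotated to a mitochondrial ribosomal protein gene together with another gene, and they were left out of the counts. The one shared by Mrps34 and Nme3 differed by 0.38, beside 0.29 for the probe set of Mrps34 alone. The one shared by Mrpl53 and Ccdc142 differed by 0.13 and the one shared by Mrpl30 and Gm6238 by -0.05.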
